A study of Mus musculus with 3 samples.

Results

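Histone genes were described in single-cell transcriptomes of microglia from control mice and from mice with a human CD33 transgene. Their members were all row symbols beginning with Hist1h, Hist2h, Hist3h, Hist4h, H1f, H2af or H3f, which gave 69 of 15635 gene symbols. Of these, 58 were replication-dependent histone genes, 10 were variant histone genes and 1 was H3f3aos, the antisense neighbour of H3f3a, which was kept out of both classes. CD33 is a sialic acid-binding receptor of myeloid cells that is spliced into a long isoform, hCD33M, and a short isoform, hCD33m. Brain cells of 8-week-old mice were sorted as CD11b+, CD45-low and Cx3cr1+, in the presence of inhibitors of transcription and translation, and sequenced on a droplet platform that reads 3′ ends and counts unique molecular identifiers (UMIs). The Control library was labelled wild type, and the labels do not say whether those mice carried Cx3cr1Cre. The hCD33M and hCD33m libraries came from mice with a Rosa26-Stop fl/fl transgene for the respective isoform, switched on in the microglial lineage by Cx3cr1Cre. Each genotype was 1 library pooled from 2 mice, so no difference below has a replicate check, and mouse, library and genotype cannot be told apart. The hCD33m strain derived from a single embryonic stem cell clone.

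After barcodes with 200 or fewer genes, more than 8000 genes or more than 10% mitochondrial UMIs were removed, 5891 Control, 5710 hCD33M and 6068 hCD33m cells remained, with 31396051, 32899506 and 38555874 UMIs. Median UMIs per cell were 4303, 4215.5 and 4881, and median mitochondrial shares were 1.748%, 1.504% and 1.424%. Microglial markers were high in all libraries, with P2ry12 between 3337 and 3533 UMIs per 1000000 UMIs of the library's kept cells (CPM) and Sall1 between 414 and 421 CPM. The hCD33m library was labelled female and the others male, yet the Y-linked gene Ddx3y stood at 94.8, 105 and 94.7 CPM in the Control, hCD33M and hCD33m libraries, and Xist was listed in the Control library alone, at 0.096 CPM. Kept cells shared between 4 and 10 barcodes per pair of libraries.

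Histones package DNA: pairs of H2A, H2B, H3 and H4 form the nucleosome core, and H1 linker histones bind where DNA enters and leaves it. Replication-dependent histone genes are clustered, lack introns and are mainly transcribed in S phase. Their mRNAs usually end in a conserved stem-loop instead of a poly(A) tail and are bound there by the stem-loop binding protein. Variant histones such as H3.3 and H2A.Z are made throughout the cell cycle from polyadenylated mRNAs and replace the canonical proteins in non-dividing cells, which adult microglia mostly are. Since the library chemistry primes on poly(A), the annotated 3′ end of a histone transcript bears on what its UMIs can represent.

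The 3′ ends were therefore read first, from GENCODE M21 on mm10. The histone stem-loop motif was searched on the sense strand of the longest protein-coding transcript of each member, and 42 of the 69 held it. The sequences of 8 members are shown because they contrast Hist1h2ap with its near copy, with H1, H2A and H4 genes above 20 CPM and with the 1 variant that holds the motif. Capitals mark the 16-base motif and lower case up to 5 flanking bases.
Hist1h2ap: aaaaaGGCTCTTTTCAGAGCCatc
Hist1h2ao: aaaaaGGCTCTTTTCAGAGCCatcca
Hist1h1e: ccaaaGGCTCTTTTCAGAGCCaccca
Hist1h2ac: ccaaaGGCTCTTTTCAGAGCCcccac
Hist1h1d: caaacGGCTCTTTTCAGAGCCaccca
Hist1h4d: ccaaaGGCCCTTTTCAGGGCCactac
Hist4h4: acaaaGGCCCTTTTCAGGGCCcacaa
H2afx: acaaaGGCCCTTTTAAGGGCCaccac
The replication-dependent H2A and H1 genes shown shared 1 form of the motif, which 23 of the 42 members carried, the H4 genes shared another, and H2afx held a form found in 1 member. What differed was the length of annotated transcript after the motif. The Hist1h2ap transcript stopped 3 bases after it and that of Hist1h2ao 31 bases after it. The transcripts of Hist1h4d, H2afx, Hist1h1e, Hist1h2ac, Hist4h4 and Hist1h1d ran on for 770, 822, 1153, 2010, 2445 and 4884 bases. Of the 58 replication-dependent members, 18 ended within 100 bases of the motif, 23 ran more than 100 bases past it and 17 held no motif. Among all 58737 protein-coding transcripts of 100 bases or more, 23 held the motif in their last 100 bases, a share of 0.039%. A poly(A) signal, AATAAA or ATTAAA, stood on the sense strand in the last 50 bases of 1 of the 18 short-ended members, 12 of the 23 long-ended members, 3 of the 17 without the motif and 8 of the 10 variants, compared with 50.3% of all protein-coding transcripts. Several of the 17 had short annotated transcripts. Hist1h4k had 312 bases and Hist1h2bl 381, against 397 in Hist1h4b and 461 in Hist1h2bf, which held the motif. Such transcripts may stop before a motif or poly(A) signal, so its absence there does not show that the gene lacks it.

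Replication-dependent members above 20 CPM mostly had long annotated ends, but most long-ended members stayed below that level. Of the 12 that reached 20 CPM in at least 1 library, 10 ran more than 100 bases past the motif, 1 (Hist1h2bc) held no motif and 1 was Hist1h2ap. Only 10 of the 23 long-ended genes thus reached 20 CPM, and 1 of the 18 short-ended ones did. Long-ended Hist1h4j was at 0.70, 0.49 and 0.65 CPM in the Control, hCD33M and hCD33m libraries, below short-ended Hist2h2ac at 14.6, 18.1 and 17.3 CPM. Together the 23 long-ended genes summed to 796, 997 and 924 CPM in the Control, hCD33M and hCD33m libraries. The 17 short-ended genes other than Hist1h2ap summed to 63.1, 67.6 and 72.7 CPM, so that Hist1h2ap alone, at 71.6 CPM, held more Control UMIs than all of them combined. Levels are in CPM and each UMI tags 1 transcript end, so they were not divided by transcript length.

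**Figure D1:**
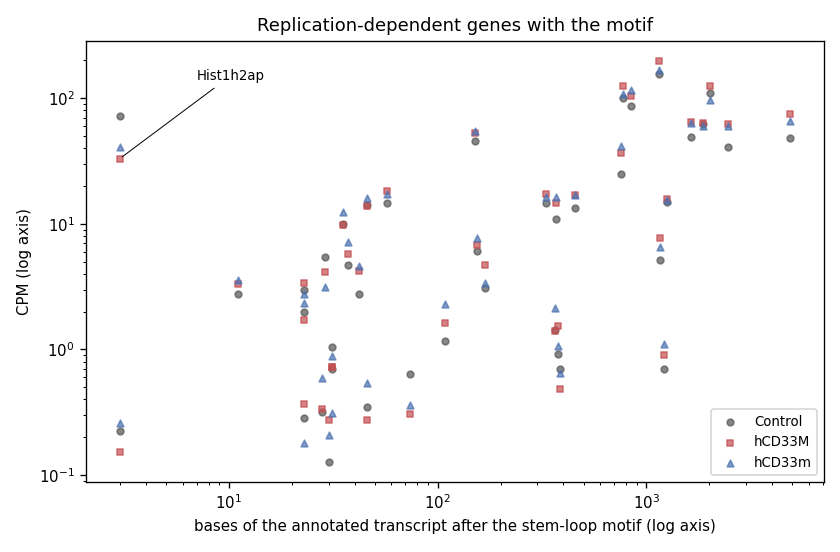
CPM (log axis) of each replication-dependent gene with the stem-loop motif in the 3 libraries, against the bases of annotated transcript after the motif (log axis). Hist1h2ap, which ends 3 bases after the motif, sits at 33.0 to 71.6 CPM, while the other genes under 100 bases stay under 20 CPM.

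In sum, replication-dependent histones took 0.103%, 0.121% and 0.114% of all UMIs in the Control, hCD33M and hCD33m libraries, and variant histones 0.271%, 0.312% and 0.347%. Over all kept cells both classes were higher in the transgenic libraries than in Control. In cells under 1000 UMIs and of 1000 to under 2000 UMIs, the replication-dependent ratios had intervals that held 0, as given below. H3f3b, also given below, set the variant sum. The replication-dependent sum differed by a log2 ratio of 0.23 for hCD33M (95% interval 0.21 to 0.25) and 0.15 for hCD33m (0.13 to 0.17). The variant sum differed by 0.20 (0.19 to 0.22) and 0.35 (0.34 to 0.37). The intervals are exact and cover counting error only, and say nothing of the spread between mice. A gene was called when it reached 20 CPM in 1 of both libraries, differed by at least 1.5-fold and had an interval without 0. Between hCD33M and Control, 2 replication-dependent members were called higher and 1 lower of 12 measured, where 0.589% of 6793 genes of the whole table were called higher and 0.412% lower. Between hCD33m and Control, 1 of 12 was called higher and 1 lower, where 0.868% and 0.368% of 6796 genes were, or 1.24% in either direction. The 1 called lower in both comparisons was Hist1h2ap. This gene was marked for description because it was lower in both transgenic libraries, so its call describes that choice and adds no support. No replication-dependent member of 12 was called between hCD33m and hCD33M, where 0.782% of 6777 genes were called in either direction. Of the 7 variants measured, 0 were called in each of the 3 comparisons, where 1.00%, 1.24% and 0.782% of all genes measured were. The median log2 ratio of the 12 was 0.29 for hCD33M and 0.19 for hCD33m against Control, that of the 7 variants was 0.02 and 0.06, and that of all genes measured was 0.01 in both. Both comparisons share the Control library. Other limits moved these counts. With a minimum of 3 UMIs in place of 20 CPM, 11 of 57 replication-dependent members were called for hCD33M, 13 of 57 for hCD33m and 3 of 57 between them, where 4.50%, 5.46% and 3.91% of all genes were. With a fold limit of 2 the counts were 1, 0 and 0 of 12, where 0.280%, 0.486% and 0.310% of all genes passed. That 1 was again Hist1h2ap. With a minimum of 50 CPM they were 3 of 11, 1 of 11 and 0 of 10, where 1.21%, 1.23% and 0.723% did.

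**Figure D2:**
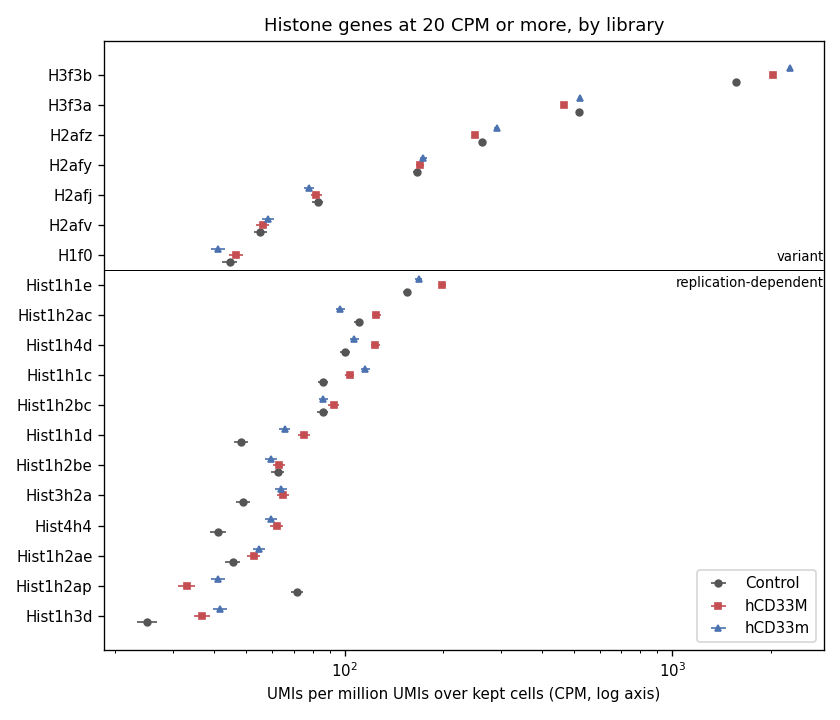
CPM (log axis) of the 19 histone genes that reached 20 CPM, with exact 95% counting intervals, in the Control (grey circles), hCD33M (red squares) and hCD33m (blue triangles) libraries. H3f3b was the most abundant, at 1568 to 2289 CPM, and Hist1h2ap was the one gene far higher in Control than in both transgenic libraries.

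Hist1h2ap encodes a canonical H2A protein in the large histone cluster and lies at chr13:21833026-21833507 on the minus strand. Control cells held 2247 UMIs of it, a level of 71.6 CPM (interval 68.6 to 74.6). The level was 33.0 CPM from 1087 UMIs in hCD33M (31.1 to 35.1), and 41.2 CPM from 1587 UMIs in hCD33m (39.2 to 43.2). The Control library was high and both transgenic libraries low, with intervals that did not overlap. The log2 ratio was -1.12 (-1.22 to -1.01) for hCD33M, a fold of 0.462, and -0.80 (-0.89 to -0.70) for hCD33m, a fold of 0.575. The hCD33m library stood above hCD33M by 0.32 (0.20 to 0.43). At least 1 UMI was found in 22.1%, 13.5% and 18.1% of cells. After each cell was thinned to 1600 UMIs, which left out 1457, 1474 and 914 shallower cells, these shares were 9.09% (8.26 to 9.97, Clopper-Pearson), 4.11% (3.53 to 4.75) and 6.29% (5.64 to 6.98). No cell type in these libraries should lack histones, so no background share was available.

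The assignment of these UMIs to Hist1h2ap is uncertain. Of the 383 windows of 100 bases in its annotated transcript, 92.2% were identical in Hist1h2ao, at chr13:21810465-21810944 on the plus strand, and the 30 windows found in no other gene all began within its first 30 bases. Hist1h2ao itself stood at 0.70, 0.73 and 0.31 CPM. The antisense gene Gm44466 lies within Hist1h2ap. Sequence identity of this kind was common: 52 of the 58 replication-dependent members shared at least 1 such window with another gene.

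A single Control cell held 124 of the 2247 Control Hist1h2ap UMIs, or 5.52%, whereas no other Control cell held more than 13 and the most in a hCD33M or hCD33m cell were 9 and 10. That cell had 32503 UMIs, with 24 UMIs of Mki67 and 21 of Top2a, both markers of dividing cells, and 4557 of S100a8, 2173 of Ngp and 2307 of Camp, which mark neutrophil precursors. It also held 31 of the 43 Control UMIs of Hist1h1b, a linker histone of dividing cells. Without it the Control level of Hist1h2ap was 67.7 CPM, still above the 33.0 and 41.2 CPM of the transgenic libraries.

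The other replication-dependent H2A genes above 20 CPM were not lower in both transgenic libraries. Hist1h2ac was at 110 CPM in Control, 125 in hCD33M and 97.2 in hCD33m, that is, higher in one and lower in the other by a log2 ratio of 0.18 (0.12 to 0.25) and -0.18 (-0.25 to -0.12). Hist1h2ae was at 45.6, 52.8 and 54.8 CPM, lowest in Control. Hist3h2a, in the small cluster on chromosome 11, was at 48.9, 64.8 and 64.0 CPM, and its log2 ratios of 0.41 (0.31 to 0.50) and 0.39 (0.29 to 0.48) were alike, but its annotated transcript overlaps Trim17 on the same strand. Over all 15 H2A members the sum was 311, 317 and 301 CPM. Its log2 ratio was 0.03 (-0.01 to 0.07) for hCD33M and -0.05 (-0.09 to -0.01) for hCD33m. This sum includes Hist1h2ap, at 71.6, 33.0 and 41.2 CPM, so it does not show how the other H2A members differed.

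The H2B genes above 20 CPM were close among libraries over all kept cells. Hist1h2bc was at 85.9 CPM in Control, 92.6 in hCD33M and 86.2 in hCD33m. By depth, however, its hCD33M ratio against Control had intervals above 0 in 2 of 5 bands and below 0 in 2. At 1000 to under 2000 UMIs it was at 99.1, 57.7 and 71.5 CPM, log2 ratios of -0.78 (-1.19 to -0.37) and -0.47 (-0.92 to -0.03). Hist1h2be was at 62.5, 63.2 and 59.6 CPM, and the intervals of both of its ratios against Control held 0. Its annotated span overlaps Hist1h1e on the same strand. Hist1h2bf, a short-ended H2B gene that stayed under 20 CPM, is named after its values were seen: it was at 5.41, 4.16 and 3.16 CPM, with log2 ratios of -0.38 (-0.71 to -0.05) and -0.78 (-1.12 to -0.43). The 16 H2B members summed to 178, 188 and 178 CPM.

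H1 linker histones were higher in sum in both transgenic libraries. The 6 members summed to 292, 380 and 352 CPM, with log2 ratios of 0.38 (0.34 to 0.42) for hCD33M and 0.27 (0.23 to 0.31) for hCD33m. Hist1h1d, at 48.3, 75.3 and 65.7 CPM, passed 1.5-fold in hCD33M at 0.64 (0.55 to 0.73) but not in hCD33m at 0.44 (0.35 to 0.54). The hCD33M call was lost in cells of 4000 to under 8000 UMIs, at 0.54, with cells thinned to 1600 UMIs, at 0.53, and with cells weighted alike, at 0.51. Hist1h1c, at 86.0, 104 and 116 CPM, was highest in hCD33m. Hist1h1e, the most abundant replication-dependent member, was at 155, 199 and 169 CPM and highest in hCD33M. The order of the transgenic libraries therefore varied among the linker genes, while Control was lowest for all 3 over all kept cells. By depth, hCD33m was above Control for Hist1h1e in 3 of 5 bands and below it in 2. At 1000 to under 2000 UMIs Hist1h1e was at 202.5 CPM in Control and 156.7 in hCD33m, a log2 ratio of -0.37 (-0.68 to -0.07). Hist1h1b went the other way, at 1.37, 0.73 and 0.62 CPM, with log2 ratios of -0.91 (-1.69 to -0.16) and -1.14 (-1.92 to -0.38), and its Control level was 0.38 CPM without the 1 cell above.

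Control was also lowest for the H3 and H4 genes above 20 CPM and for both sums. Hist1h3d, the 1 H3 gene of the class above 20 CPM, was at 25.0, 36.8 and 41.6 CPM and passed 1.5-fold in hCD33m, at 0.73 (0.61 to 0.86), with 0.56 (0.43 to 0.69) in hCD33M. The hCD33m call was lost with cells thinned to 1600 UMIs, at 0.47, and with cells weighted alike, at 0.51. The 9 H3 members summed to 49.8, 70.1 and 76.4 CPM. Hist4h4, a solitary H4 gene on chromosome 6, was at 41.1, 62.0 and 59.6 CPM and passed 1.5-fold in hCD33M by a narrow margin, at 0.59 (0.49 to 0.69) against a limit of 0.58, and not in hCD33m, at 0.53 (0.44 to 0.63). The hCD33M call was lost with cells weighted alike, at 0.52. Hist1h4d was at 100.3, 124 and 107 CPM. The 12 H4 members summed to 202, 254 and 236 CPM.

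The remaining 46 replication-dependent members stayed under 20 CPM in every library, between 0.091 and 18.1 CPM. They held the UMIs left over by the 12 above, which took 85.3%, 85.4% and 84.1% of the class. Against Control, 31 of these 46 had a ratio above 0 in hCD33M and 14 below, with intervals clear of 0 for 11 and 2. In hCD33m, 34 were above and 11 below, with intervals clear of 0 for 13 and 3. The matching shares over all genes under 20 CPM are not given, so these counts do not set the members apart from other genes. Hist1h1t was listed in the hCD33M library alone and has no ratio. Hist2h2ac, with 57 bases of transcript after the motif, was at 14.6, 18.1 and 17.3 CPM. Hist1h4h, with 46, was at 14.2, 13.8 and 16.003 CPM. Neither was lower than Control in both transgenic libraries, whereas short-ended Hist1h2bf, given above, was. These genes were named after their values were seen, and a link between a short end and the library difference was not tested. The 17 short-ended members other than Hist1h2ap summed to log2 ratios of 0.10 (0.01 to 0.19) and 0.20 (0.12 to 0.29).

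**Figure D3:**
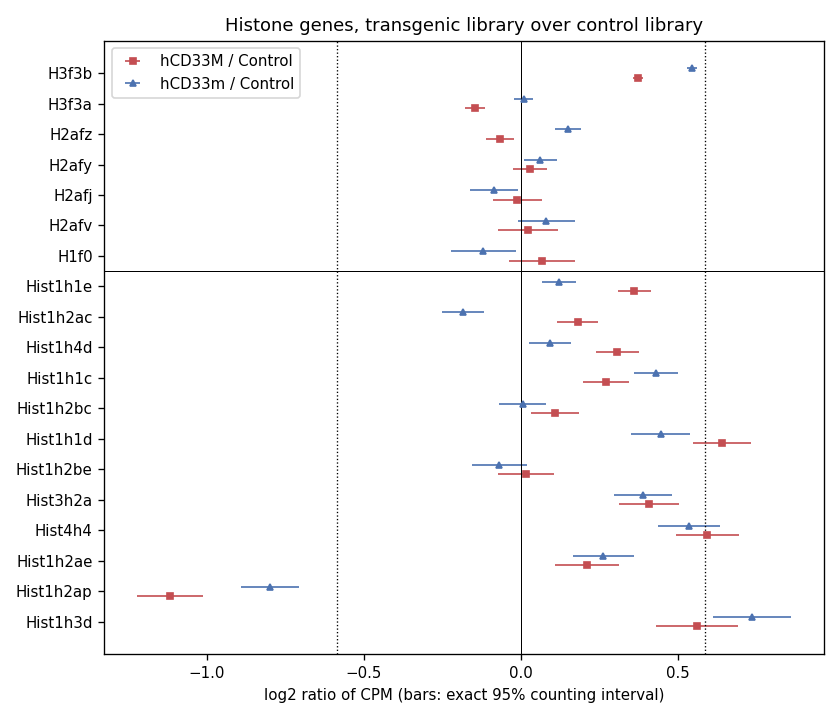
Log2 ratios of CPM for hCD33M over Control (red squares) and hCD33m over Control (blue triangles) with exact 95% counting intervals, for the 19 histone genes at 20 CPM or more. Dotted lines mark 1.5-fold. Hist1h2ap lies beyond the lower line in both, and Hist1h1d, Hist4h4 and Hist1h3d reach the upper line in 1 comparison each.

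Among variants, H3f3b set the sum. H3f3a and H3f3b both encode the replacement histone H3.3. Control cells held 1568 CPM of H3f3b (interval 1555 to 1582). Its level was 2029.8 CPM (2014 to 2045) with hCD33M, and 2289 CPM (2274 to 2305) with hCD33m. It was lowest in Control and highest in hCD33m, with log2 ratios of 0.37 (0.36 to 0.39) and 0.55 (0.53 to 0.56), the latter just under the 1.5-fold limit. H3f3a did not share this order, at 519, 469 and 523 CPM. It was lowest in hCD33M, by -0.15 (-0.18 to -0.12), and the interval of hCD33m held 0 over all cells, at 0.01 (-0.02 to 0.04). By depth, however, hCD33m was above Control at 1000 to under 2000 UMIs, by 0.32 (0.05 to 0.59), and at 2000 to under 4000, by 0.26 (0.15 to 0.37), and below it at 8000 or more, by -0.07 (-0.12 to -0.03). H3f3aos, which overlaps H3f3a on the opposite strand, was at 5.73, 5.35 and 5.06 CPM.

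The H2A variants were close among libraries. H2afz, which encodes H2A.Z, was at 262, 251 and 291 CPM, with log2 ratios of -0.07 (-0.11 to -0.02) and 0.15 (0.11 to 0.19). H2afy, which encodes macroH2A, was at 167, 170.2 and 174 CPM. H2afj was at 82.8, 82.1 and 78.0 CPM and H2afv, which encodes a second H2A.Z, at 55.4, 56.3 and 58.6 CPM. H1f0, the linker histone of differentiated cells, was at 44.6, 46.7 and 41.1 CPM. The other 3 variants stayed under 20 CPM: H2afx, whose product is phosphorylated at DNA breaks, at 11.3, 13.3 and 11.5 CPM, and H2afy2 and H1fx under 1 CPM.

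Several variants, but not the replication-dependent sum, were lower in shallow cells. Cells were placed in 5 bands, with limits at 1000, 2000, 4000 and 8000 UMIs. The replication-dependent sum lay between 969.6 and 1197 CPM in Control over all bands. Under 1000 UMIs its log2 ratios against Control were 0.01 (-0.15 to 0.18) for hCD33M and 0.14 (-0.05 to 0.33) for hCD33m. At 1000 to under 2000 UMIs they were -0.01 (-0.11 to 0.09) and -0.02 (-0.13 to 0.10). At 2000 to under 4000 UMIs they were 0.21 (0.14 to 0.28) and 0.19 (0.13 to 0.26). In Control, cells under 2000 UMIs were at 1127 CPM and cells of 4000 to under 8000 UMIs at 990.5 CPM. H3f3a, in contrast, was at 186 CPM in the shallow Control cells and 552 in the deeper ones, a log2 ratio of -1.57 (-1.73 to -1.42), with -1.57 in hCD33M and -1.27 in hCD33m. H2afz was lower in shallow cells by -1.49, -1.56 and -1.44 in the 3 libraries. H2afv and H2afj were also lower in each library, H2afv by -1.57, -1.56 and -1.91 and H2afj by -0.99, -0.92 and -0.68.

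H3f3b behaved differently from H3f3a by depth. Its log2 ratio of shallow over deeper cells was -0.23 (-0.29 to -0.17) in Control but 0.14 (0.10 to 0.19) in hCD33M and 0.27 (0.22 to 0.32) in hCD33m. The library difference of H3f3b was therefore widest in cells under 2000 UMIs. Under 1000 UMIs it was at 1241, 1913 and 2729.6 CPM, log2 ratios of 0.62 (0.49 to 0.76) and 1.14 (1.00 to 1.28) against Control. At 8000 or more UMIs it was at 1560.0, 1967 and 2249.5 CPM, with 0.33 (0.31 to 0.36) and 0.53 (0.50 to 0.55). It was higher than Control with an interval clear of 0 in 5 of 5 bands in both transgenic libraries.

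Hist1h2ap was lower than Control with an interval clear of 0 in 5 of 5 bands in both transgenic libraries as well. In Control it stayed between 62.0 and 80.4 CPM over the bands. In hCD33M it was at 20.4, 12.5, 23.5, 28.1 and 39.8 CPM from the shallowest to the deepest band, and in hCD33m at 16.2, 23.8, 47.4, 37.2 and 44.2 CPM. Within the transgenic libraries shallow cells thus held less of it, by -0.93 (-1.52 to -0.38) and -0.79 (-1.40 to -0.23) for cells under 2000 against 4000 to under 8000 UMIs, while the Control interval held 0, at 0.16 (-0.11 to 0.43). The log2 ratio against Control ran from -2.51 to -1.01 over bands in hCD33M and from -2.01 to -0.59 in hCD33m. The hCD33m library had fewer cells under 2000 UMIs, and the part of depth in these differences was not tested beyond the bands.

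**Figure D4:**
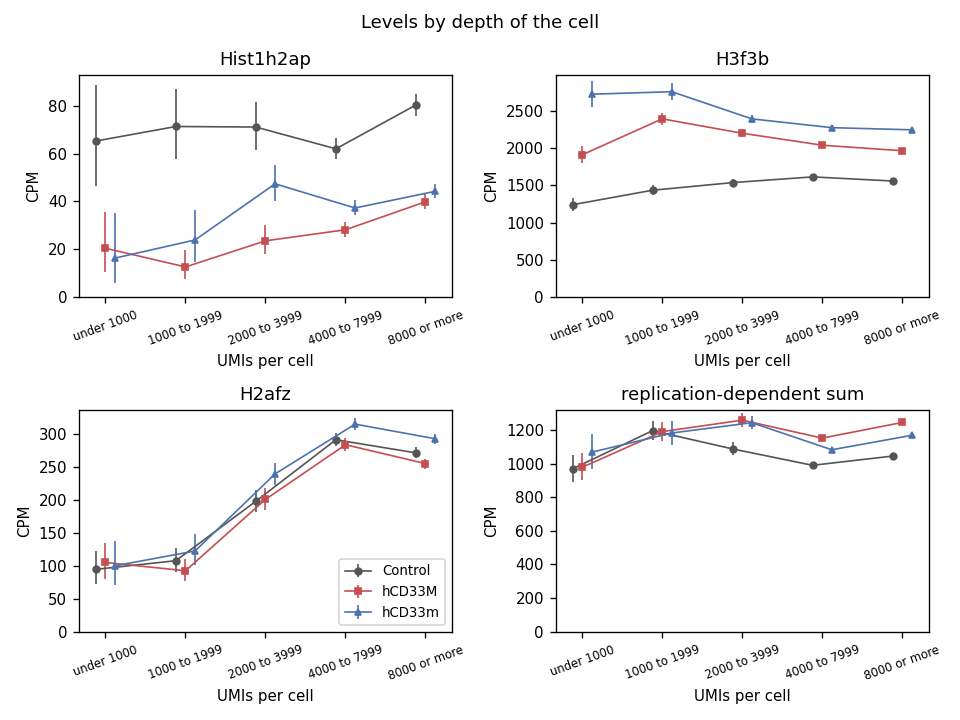
CPM of Hist1h2ap, H3f3b, H2afz and the summed replication-dependent genes by UMIs per cell, in the Control (grey), hCD33M (red) and hCD33m (blue) libraries, with exact 95% counting intervals. Control is highest for Hist1h2ap and lowest for H3f3b in each band. For H2afz the libraries differ less, with hCD33m above hCD33M in 4 of 5 bands and above Control in 5 of 5, with ratio intervals clear of 0 in 4 and 3.

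Cells were clustered without histone genes and the clusters named from fixed markers. This gave 14357 microglia-like cells in 8 clusters, 204 border associated macrophage-like cells and 84 monocyte-like cells. A further 3024 cells in 2 shallow clusters, with median UMIs of 1022 and 721, stayed unnamed. The comparisons below pool the libraries and describe clusters, with no test. In microglia-like cells the replication-dependent genes summed to 1142 CPM (1135 to 1148) and the variants to 3116 CPM. In border associated macrophage-like cells they were at 933 and 3315 CPM. Monocyte-like cells without the Control cell described above held 636 CPM (582 to 692) of replication-dependent histones and 5943 CPM (5778 to 6112) of variants, the lowest and the highest of the 3 classes. The top 10 genes of their cluster held Cd177 and Mmp8 beside the monocyte markers Chil3 and Fn1. Over all kept cells the neutrophil markers S100a8 and S100a9 were at 40.3 and 46.4 CPM in hCD33M and 27.8 and 30.9 CPM in hCD33m. Whether further neutrophil-like cells lie within the monocyte-like class was not tested.

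The variants that were high in monocyte-like cells were H3f3a, H2afz, H2afj and H2afy. Without that cell H3f3a was at 2397 CPM, against 494 in microglia-like cells, and was high in each library, at 2600.0, 2008 and 2578 CPM. H2afz was at 837 against 267 CPM, H2afj at 406 against 77.8 and H2afy at 351 against 170.5. H3f3b was not among them, at 1791 against 1993 CPM, and its level in the monocyte-like cells of the 3 libraries was 1823, 1790.1 and 1773 CPM, with overlapping intervals. Of the replication-dependent genes, Hist1h2ac was at 38.9 CPM against 111 in microglia-like cells, Hist1h2bc at 26.7 against 89.9 and Hist4h4 at 20.7 against 54.9.

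**Figure D5:**
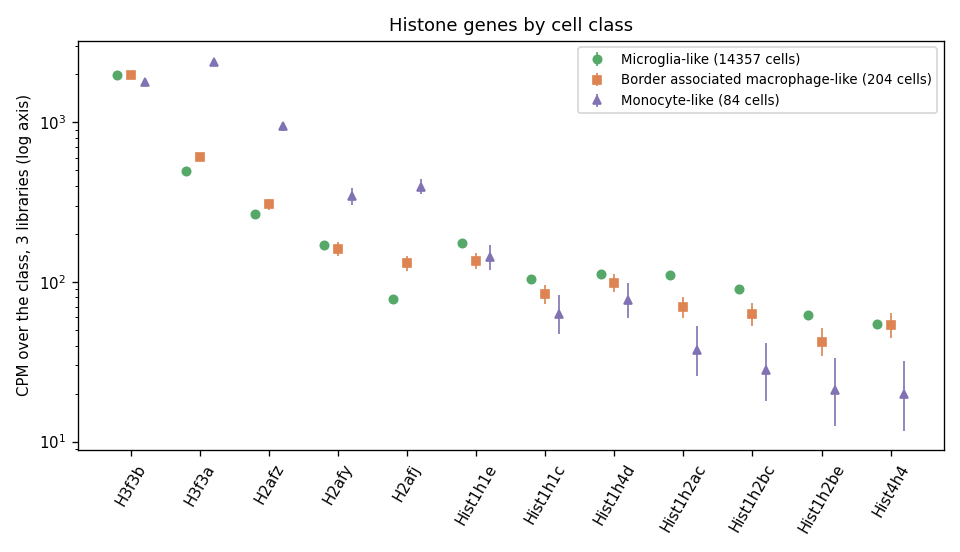
CPM (log axis) of 12 histone genes over the 3 libraries in microglia-like (green circles), border associated macrophage-like (orange squares) and monocyte-like (purple triangles) cells, with exact 95% counting intervals. H3f3a, H2afz, H2afj and H2afy stand highest in monocyte-like cells, and Hist1h2ac, Hist1h2bc and Hist1h2be lowest there. All 84 monocyte-like cells are included.

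The differences of Hist1h2ap between libraries were seen within microglia-like cells and within the unnamed shallow cells. In microglia-like cells Hist1h2ap was at 68.8, 33.5 and 42.4 CPM, log2 ratios of -1.04 (-1.15 to -0.93) and -0.70 (-0.80 to -0.60), and in the unnamed shallow cells at 55.9, 15.2 and 14.8 CPM. In border associated macrophage-like cells it was at 44.0, 33.6 and 26.1 CPM from 26, 21 and 32 UMIs, and intervals of the ratios held 0. In monocyte-like cells it was at 543, 48.1 and 17.6 CPM, but the Control value was 42.4 CPM, from 9 UMIs, without that cell. Of the 12 clusters, hCD33M was below Control in 11, with intervals clear of 0 in 10, and held no Hist1h2ap UMI in the other (cluster 10, 21 cells). The hCD33m library was below Control in 12, with intervals clear of 0 in 10. With that Control cell left out, hCD33M was below in 10 and hCD33m in 12, each with intervals clear of 0 in 9. H3f3b was above Control in 11 of 12 clusters in both transgenic libraries, and the exception in both was the monocyte-like cluster.

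Dividing cells were few. Cells with 3 or more UMIs of the cycling genes used to mark them numbered 12, 11 and 16 in the Control, hCD33M and hCD33m libraries. They held 149, 12 and 22 of the Hist1h2ap UMIs. Without the Control cell above, the 38 that remain held 1710.4 CPM (1599 to 1827) of replication-dependent histones over the 3 libraries, against 1130.3 CPM in all kept cells, with H2afz at 660 against 269 CPM and Hist1h1b at 37.0 against 0.88 CPM. In cells outside this set Hist1h2ap was at 67.1, 32.9 and 40.8 CPM, log2 ratios of -1.03 (-1.14 to -0.92) and -0.72 (-0.81 to -0.62).

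Genes that act on histones were compared through 3 lists. Of 30 histone chaperones and exchange factors, which carry histones and load them on DNA, 23 were measured for hCD33M and 24 for hCD33m, and 0 were called in either direction, where 1.00% and 1.24% of all genes measured were. Their median log2 ratios were 0.02 and 0.07. Spty2d1, a histone H3-H4 chaperone, had the largest ratio in both, at 74.9, 88.1 and 99.2 CPM, or 0.24 (0.16 to 0.31) and 0.41 (0.33 to 0.48). Hjurp, which loads the centromeric H3, was at 68.8, 76.4 and 86.9 CPM and Znhit1, a subunit of the complex that deposits H2A.Z, at 50.1, 56.6 and 57.2 CPM. Cabin1, which acts with the HIRA complex on H3.3, was at 76.1, 67.3 and 69.4 CPM, and Daxx, another H3.3 chaperone, at 16.8, 18.9 and 21.1 CPM.

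Of 24 genes for the making and decay of histone mRNA, 22 were found, 16 were measured for hCD33M and 17 for hCD33m, and again 0 were called, beside the same 1.00% and 1.24%, with median log2 ratios of 0.07 and 0.08. With so low a share over all genes, 0 calls in lists of this size say nothing about the lists. Eri1, an exonuclease that trims the histone stem-loop, was at 31.8, 36.7 and 37.5 CPM. Zcchc6 and Zcchc11, which add uridines to histone mRNA ends, were at 188, 209 and 218 CPM and at 117, 129.97 and 122 CPM. Casp8ap2, a factor for histone mRNA 3′ processing, was at 55.3, 61.8 and 63.7 CPM, and Npat, the transcription factor of histone gene clusters, at 20.5, 21.6 and 23.6 CPM. Of 32 cycling cell genes 4 were measured and 0 called, again beside 1.00% and 1.24%. Hmgb2, a chromatin protein, was at 97.7, 126 and 143 CPM and Pcna, the replication clamp, at 27.4, 32.9 and 40.9 CPM, both lowest in Control. Stmn1 was at 25.5, 23.6 and 23.9 CPM and Mcm3, a subunit of the replicative helicase, at 36.0, 35.9 and 38.8 CPM. The other 28 stayed under 20 CPM and were more often below Control than above it. For hCD33M, 23 had a ratio below 0 and 4 above, with intervals clear of 0 for 11 and 0, and for hCD33m 19 were below and 9 above, with intervals clear of 0 for 5 and 2. Without the Control cell described above these were 19 and 8, with 6 and 0 clear, and 14 and 14, with 2 and 3 clear. No matching shares over all genes under 20 CPM are given, so these counts do not set the list apart. Mki67 was at 1.497, 0.73 and 0.70 CPM, and at 0.73 CPM in Control without that cell. Hells, a chromatin remodeller, was at 3.73, 2.22 and 2.90 CPM and held no UMI in that cell.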

How the data were processed

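Per the labels and the study's methods, the authors aligned the reads to mm10 and deposited UMI counts per gene and barcode for 1 library per genotype, with later steps in Seurat. They kept barcodes with over 200 genes, and listed a gene only where 3 or more cells held it, so a gene without a row is not a gene at 0. The annotation the authors counted with is not given in the sources used here. The members and gene lists were chosen with earlier results of these data known.

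Barcodes with over 200 and up to 8000 genes and up to 10% mitochondrial UMIs were kept. Counts were summed over kept cells and divided by all UMIs (CPM), with exact Poisson 95% intervals. Ratios carry exact conditional binomial intervals and shares Clopper-Pearson intervals. These cover counting error only. With 1 library per genotype there are no p-values. The call rule was checked on simulated counts with 2-fold changes and counting error only. That check does not cover spread between mice or libraries, or ratios near 1.5-fold.

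Clusters came from scanpy 1.11.5 (2000 variable genes without histone, sex-linked, mitochondrial and immediate early genes, 15 components, 20 neighbours, Leiden resolution 0.8). No doublet caller was run. A class name needed 3 markers above 20 CPM, at 50% of the highest cluster's level and in 25% of the cluster's cells. A cluster also stayed unnamed where another class had more markers among its top 10 genes by fold, or where none of the name's markers was among them and its cells' UMIs were, by the median, less than 1 in 3 of their library's median (0.230 in the cluster this left unnamed). This share rule was set after single cells had given clusters a wrong name.

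Genes were named if they reached 20 CPM in 1 library, with Hist1h2ap, and for other lists the 4 measured members with the largest ratios against Control. Hist1h1b, Hist1h2bf, Hist1h4h, Hist2h2ac and Hist1h2ao were named in addition, after their values were seen. Hist1h4j, Hist1h1t, the variants under 20 CPM, Mki67 and Hells were also named outside this rule, with their values known. Alternatives changed the cells kept, scaling (edgeR TMM), fold limit and minimum level.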

Additional observations from a re-analysis of the deposited data

Results flagged for a closer look

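Barcodes left out for too many genes or too many mitochondrial UMIs carried more histone UMIs per 1000000 UMIs in the hCD33M library, and more of the variants in the hCD33m library, than in the Control library. In the 210 removed hCD33M barcodes the replication-dependent genes summed to 1203 CPM (1167 to 1240.0) and the variants to 3122 CPM (3064 to 3181). In the 189 removed hCD33m barcodes the variants summed to 3195 CPM (3118 to 3272) and the replication-dependent genes to 1069 CPM (1025 to 1114), an interval that overlaps that of Control. The 272 removed Control barcodes held 1037 CPM (971 to 1107) and 2508.5 CPM (2405 to 2616). Hist1h2ap was at 68.5 CPM in the removed Control barcodes and at 42.7 and 41.5 CPM in those of hCD33M and hCD33m, the same order of Control against transgenic libraries as in kept cells. The cause was not tested.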

How the results depend on the processing

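Each ratio and count was recomputed under 12 other settings and, in a setting added after seeing the data, without the 1 Control cell with the most Hist1h2ap UMIs. No paired analysis was possible because each genotype has 1 library. Hist1h2ap stayed lower than Control in all of them, with log2 ratios from -1.41 to -1.03 for hCD33M and from -0.88 to -0.65 for hCD33m. Since the gene was marked for being lower, this is a description. H3f3b stayed higher, from 0.34 to 0.48 and from 0.50 to 0.66. The settings that change ratios gave 540 ratios of single genes other than Hist1h2ap, with H3f3b included. Of these, 521 kept their sign, including all 160 whose reported size was at least 0.25. With cells weighted alike, Hist1h2ap was at -1.41 for hCD33M and 0.53 between hCD33m and hCD33M. The replication-dependent sums were then 0.17 and 0.13 against Control and -0.043 between the isoforms, and the variant sums 0.30, 0.50 and 0.20. H3f3b passed 1.5-fold in hCD33m against Control under this weighting. Thinning to 1600 UMIs gave Hist1h2ap -1.25 and -0.65 against Control and 0.60 between the isoforms (hCD33m over hCD33M). The variant sums were then 0.25 and 0.39 against Control. Calls under equal weighting and under thinning are not counted, because the share of all genes called there is not given. In microglia-like cells Hist1h2ap was at -0.70 for hCD33m, and the variant sum of hCD33m over hCD33M at 0.14. In cells of 4000 to under 8000 UMIs the variant sum was at 0.31 for hCD33m against Control and 0.12 against hCD33M. A fold limit of 2 left 1 replication-dependent call for hCD33M and 0 for hCD33m, and a minimum of 50 CPM left 1 for hCD33m. Each of these calls was Hist1h2ap. With no minimum beyond 3 UMIs the calls were 11, 13 and 3 in the 3 comparisons, where 4.50%, 5.46% and 3.91% of all genes were called. The causes were not tested. With 1 library per genotype, counting error is the only error measured, and depth limits most members under 20 CPM.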
